A study of Mus musculus with 5 samples.

Results

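The genes described here serve the presentation of peptides by MHC class I molecules. They were measured in Hardy fraction A, sorted from mouse bone marrow as the earliest B lineage fraction. They were chosen by gene symbol, as every transcript listed under B2m, Tap1, Tap2, Tapbp, Psmb8, Psmb9, Psmb10 or Nlrc5, which gave 10 transcripts of 8 genes out of 26531 transcripts of 22098 symbols. The libraries were 2 from mice of genotype Ikaros_ZnF1-/- (dF1), 1 from mice of genotype Ikaros_ZnF4-/- (dF4) and 2 from wild-type mice (wt), all C57BL/6 and aged 6 to 7 weeks. Ikaros is a transcription factor of lymphocyte development, and the mutants are named for the zinc finger that is affected. Cells were sorted without prior removal of other lineages, and the labels call them proB cells. Per the design text, dF1 has biological replicates and dF4 a single sample of low coverage. Nothing says the same of wt, so p-values measure the spread between these libraries, which for wt may be technical.

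Nearly every cell type shows short peptides of its own proteins on MHC class I. The peptides are cut by the proteasome, pumped into the endoplasmic reticulum by the transporter TAP and loaded there, with the help of tapasin, onto a heavy chain bound to beta-2 microglobulin. Interferon induces the genes of this route, and many blood cells also express them without interferon, including the catalytic subunits that turn the standard proteasome into the immunoproteasome.

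Levels are given in RPKM, read numbers scaled to transcript length and library size, which allows different genes to be set side by side. The wt and dF1 columns give no read number. In the dF4 library, the steps between low values put 1 read at about 1.66 RPM, or some 601000 reads in all, and 79.5% of 1138 low values lay within 0.1 read of a whole number. Intervals given for dF4 are exact 95% Poisson intervals on reads recovered in this way, and cover counting error only.

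The dF4 library stood apart in its cell markers. Summed over 12 neutrophil markers it held 33310 RPKM, against 398.3 and 1066 in wt, while 9 markers of plasmacytoid dendritic cells (pDC) summed to 830.1 RPKM, against 5101 and 5905. All 9 pDC markers were below the wt mean in dF4, as were 48.7% of all tested transcripts, and Cd300c and Cox6a2 were listed at 0. Siglech was at 5.5 RPKM in dF4, against 936.2 and 838.4 in wt. The largest part of the dF4 sum was Ly6d, at 311.8 RPKM against 913.1 and 1179 in wt. Markers of early B cells were above 0 in every library, and the 10 of them summed to 496.3 and 482.1 RPKM in dF1, 1275 in dF4 and 625.2 and 345.8 in wt. In all libraries but dF4 this sum lay below the pDC sum, which was 4325 and 5061 in dF1. Of the 10 markers, 8 were above the wt mean in dF4, among them Cd79a, and 2 below. The lower 2 were Dntt (14.8 RPKM in dF4 against 238.9 and 152.5 in wt) and Rag1 (16.6 against 29.7 and 13.1). The neutrophil sum was 217.6 and 841.2 RPKM in dF1, and the NK sum 1407 and 1204 in dF1, against 1156 and 559.2 in wt. In such bulk samples, fewer cells of a type and less RNA per cell cannot be told apart.

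All 10 transcripts passed the filter on low values, a mean over the libraries of 1 RPKM or more. Across the genes, B2m was far above the rest, with a wt mean of 2312 RPKM that ranked 3 among 12213 tested transcripts. Psmb8 came next at 229.6 RPKM in wt, followed by Psmb9 (203.3), Tapbp (168.9), Tap1 (127.3), Psmb10 (84.95), Tap2 (75.75) and Nlrc5 (34.55), each by its most abundant transcript. The step from B2m to Psmb8, that from Tap1 to Psmb10 and that from Tap2 to Nlrc5 were wider than the spread of all 5 libraries. Ranges of the other neighbours overlapped, although Psmb8 was above Psmb9, and Tapbp above Tap1, in 5 of 5 libraries. Psmb9 against Tapbp, and Psmb10 against Tap2, kept their order in 3 of 5.

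**Figure D1:**
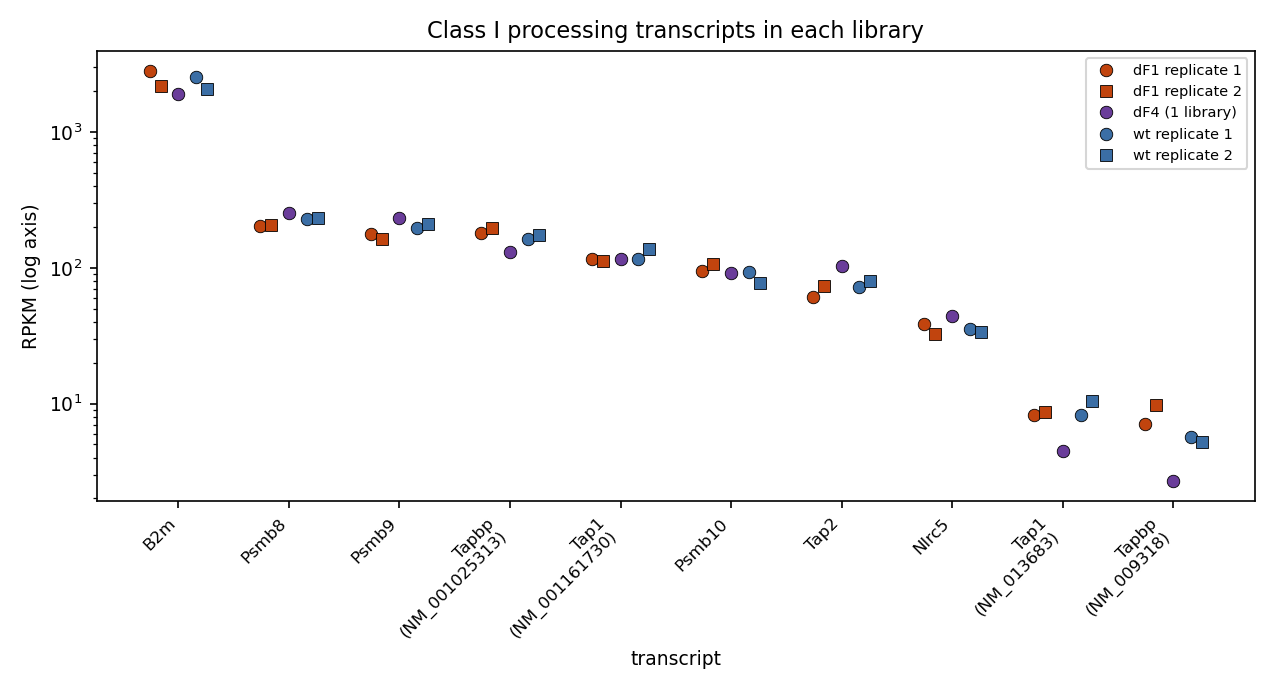
RPKM on a log axis of the 10 transcripts in each library, ordered by wt mean, with 1 point per library (dF1 replicates, the dF4 library, wt replicates). The points of each gene's leading transcript lie close together, while the minor transcripts of Tap1 (NM_013683) and Tapbp (NM_009318) are lowest in dF4, at 4.5 and 2.7 RPKM.

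The 8 genes together summed to 3686.3 and 3099.1 RPKM in dF1, 2891.9 in dF4 and 3467.8 and 3035.3 in wt, most of it B2m. This was 1.23% and 1.01% of all RPKM in dF1, 0.837% in dF4 and 1.13% and 1.06% in wt, with dF4 the lowest and dF1 on both sides of wt. Without B2m, the other 7 genes summed to 884 and 909.6 RPKM in dF1, 978.3 in dF4 and 918.9 and 959.4 in wt. The highest of the 5 libraries was 1.23 to 1.7 times the lowest for each gene's leading transcript, with a median of 1.4. Over all 2366 transcripts that averaged 30 RPKM or more in wt, the median of this ratio was 1.53, and 61.7% had a ratio no larger than the widest of the 8 genes. A small ratio was common at these levels.

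**Figure D2:**
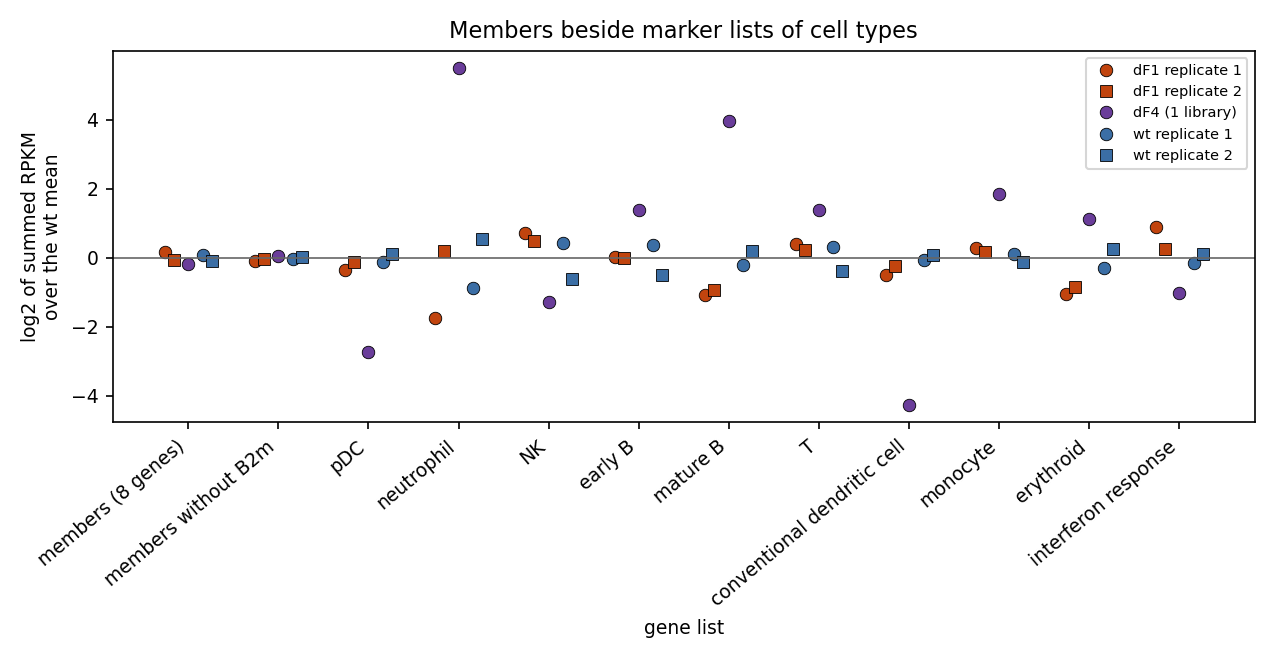
Log2 of the summed RPKM of each gene list over its wt mean, with 1 point per library (dF1, dF4, wt). The members stay near 0 in all 5 libraries, with or without B2m, whereas the neutrophil and mature B lists are far above 0 in dF4, and the pDC and conventional dendritic cell lists far below.

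The first comparison asked whether the dF1 mutation changes these transcripts. It found no member past the threshold. In limma over 12213 transcripts, 0 of 10 members had an adjusted p under 0.05, as for all transcripts (0%, 0 called). With robust variances 33 transcripts were called (0.27%), and 25 among those averaging 5 RPKM or more (0.285%), again with 0 members. At an unadjusted p under 0.05 there was 1 member, the minor transcript of Tapbp, which was higher in dF1, against 7.16% of all transcripts (875, of which 3.11% of all were higher and 4.05% lower). The dF1 libraries lay wholly above both wt libraries for 3 members and wholly below for 3, where 34.7% of all transcripts did not overlap (16.9% higher and 17.9% lower). The median log2 difference of the 10 was -0.04, beside 0.01 for all tested transcripts, and the median size of a difference was 0.15, beside 0.14.

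B2m encodes the light chain that every class I heavy chain needs to reach the cell surface. It was at 2802.3 and 2189.5 RPKM in dF1, 1913.6 in dF4 and 2548.9 and 2075.9 in wt. In both genotypes with replicates, replicate 1 was the higher, and the dF1 and wt values overlapped. The dF1 difference was 0.11 on the log2 scale, with a wide 95% interval of -0.62 to 0.83 (limma adjusted p = 0.95). For dF4 the value rested on about 991 reads (interval 1800 to 2040 RPKM) and was the lowest of the 5, 0.828 of the wt mean. Its log2 difference of -0.27 became -1.22 after quantile normalization, which sets all libraries to one distribution.

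The promoter of B2m is shown because it carries the only match among the windows of the members to the core of the interferon-stimulated response element, searched as GAAA, any 2 bases and GAAA again. It covers 250 bases before and 50 after the RefSeq start, at chr2:122147437-122147736 of GRCm38.p6, plus strand. Capitals mark that match, the Ikaros core TGGGAA next to it and 2 matches to TGACG, a part of the cyclic AMP response element.
B2m: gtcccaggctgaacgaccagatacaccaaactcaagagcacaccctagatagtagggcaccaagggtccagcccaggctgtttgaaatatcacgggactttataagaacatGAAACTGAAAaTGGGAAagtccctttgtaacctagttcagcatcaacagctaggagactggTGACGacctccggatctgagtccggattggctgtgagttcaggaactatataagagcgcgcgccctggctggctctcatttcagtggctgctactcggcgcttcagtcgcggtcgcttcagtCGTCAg
Such windows were found for 6 of the 8 genes. On both strands, the response element core was present in 1 of the 6, against 3.44% of all 32851 windows. Ikaros core matches were present in 6 of 6, against 25.6%, though the match of Tap1 and that of Psmb9 are 1 and the same stretch. For TGACG the count was 3 of 6, against 20.8%, and Tap1 and Psmb9 again share 1 match. These matches are letters in a sequence and say nothing about binding.

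Tap1 and Tap2 encode the subunits that together form the TAP transporter. The leading Tap1 transcript, NM_001161730, was at 115.6 and 112.7 RPKM in dF1, 116.8 in dF4 and 116.5 and 138.2 in wt. Its dF1 libraries lay just under both wt libraries, with a log2 difference of -0.15 (interval -0.5 to 0.2, limma adjusted p = 0.854). The dF4 value (about 202 reads, interval 101 to 134) lay between the wt libraries.
Tap2 was at 60.5 and 73.2 RPKM in dF1, 102.9 in dF4 and 72 and 79.5 in wt. Here dF4 was the highest of the 5 libraries, 1.36 times the wt mean, and its interval of 87.5 to 121 lay above both wt values. Between dF1 and wt the Tap2 ranges overlapped (difference -0.18, interval -0.55 to 0.18, limma adjusted p = 0.838). Tap2 stood closest to Tap1 in dF4.

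Tap1 shares a divergent promoter with Psmb9. The RefSeq starts of the 2 genes lie 226 bases apart on opposite strands of chromosome 17, and Psmb9, Tap1, Psmb8 and Tap2 follow each other there with no other annotated gene between them. The window of Tap1, at chr17:34187306-34187605 of GRCm38.p6 on the plus strand, shares 275 of its 300 bases with that of Psmb9. It is shown because it serves both genes, and capitals mark TGACG and the Ikaros core TGGGAA.
Tap1: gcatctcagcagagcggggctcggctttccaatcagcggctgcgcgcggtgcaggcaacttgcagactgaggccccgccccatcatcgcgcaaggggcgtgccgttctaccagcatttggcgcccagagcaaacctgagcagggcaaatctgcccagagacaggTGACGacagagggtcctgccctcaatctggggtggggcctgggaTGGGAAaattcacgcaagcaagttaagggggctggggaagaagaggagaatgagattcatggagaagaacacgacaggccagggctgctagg
Psmb9 was at 1.15 times its wt mean in dF4 and Tap1 at 0.917. In dF1 the values were 0.837 of the wt mean for Psmb9 and 0.896 for Tap1.

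The other Tap1 transcript, NM_013683, differs by an added stretch of 84 bases, or 28 residues, within the coding sequence. In the GENCODE transcripts of GRCm38 it lies at chr17:34192856-34192939, plus strand. The stretch is given in capitals with 24 bases on each side, since the 2 transcripts are listed with separate values. How reads were divided between them is not given.
Tap1 NM_013683: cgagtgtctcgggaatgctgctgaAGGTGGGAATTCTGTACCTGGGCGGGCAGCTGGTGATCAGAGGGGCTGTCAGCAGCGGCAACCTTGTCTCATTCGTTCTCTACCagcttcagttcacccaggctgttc
This form was at 8.2 and 8.7 RPKM in dF1, 4.5 in dF4 and 8.2 and 10.4 in wt. It made up 6.62% and 7.17% of the 2 Tap1 values together in dF1, 3.71% in dF4 and 6.58% and 7% in wt, so dF1 and wt were alike. The dF4 value rested on about 8 reads, and its interval of 1.94 to 8.86 RPKM reached 1 of the wt values.

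Tapbp encodes tapasin, which holds TAP and the empty class I molecule together while a peptide is chosen. The leading transcript, NM_001025313, was at 179 and 195.9 RPKM in dF1, 130.1 in dF4 and 164 and 173.8 in wt. The dF1 libraries were the highest and dF4 the lowest of the 5. The dF1 difference of 0.15 did not pass (interval -0.18 to 0.47, limma adjusted p = 0.847). In dF4 the level was 0.77 of the wt mean, and its interval of 114 to 149 RPKM lay below both wt values.

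Tapbp has a second listed transcript, NM_009318, which lacks 3 coding bases (chr17:33926627-33926629 of GRCm38, plus strand). The 3 bases are in capitals below, with 24 bases on each side, to show how little separates the 2 forms.
Tapbp NM_001025313: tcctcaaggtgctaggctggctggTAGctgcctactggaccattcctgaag
NM_009318 was at 7.1 and 9.7 RPKM in dF1, 2.7 in dF4 and 5.7 and 5.2 in wt. Both dF1 values lay above both wt values, the largest dF1 difference of the 10 transcripts (0.53, SE 0.19, interval 0.05 to 1.02). It did not pass the correction (limma adjusted p = 0.67). Its share of the 2 Tapbp values was 3.82% and 4.72% in dF1, 2.03% in dF4 and 3.36% and 2.91% in wt. The dF4 value stood for about 4 reads, with an interval of 0.659 to 6.19 RPKM that held both wt values. How reads were divided between transcripts that differ by so few bases is not given in the sources used here, so the levels of the minor forms are uncertain.

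The immunoproteasome subunits come next. Psmb8 replaces Psmb5 as the site that cuts after large hydrophobic residues. It was at 204.5 and 207 RPKM in dF1, 252.4 in dF4 and 227 and 232.2 in wt. The dF1 libraries were the lowest, the wt libraries came next and dF4 was the highest, though the dF4 interval of 217 to 291 RPKM (about 186 reads) held both wt values. Its dF4 difference of 0.14 became -0.04 after quantile normalization. The difference of dF1 from wt was -0.16, with an interval of -0.47 to 0.16 (limma adjusted p = 0.838).

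Psmb9 replaces Psmb6. It was at 176.7 and 163.8 RPKM in dF1, 232.9 in dF4 and 197.5 and 209.1 in wt, the same order of groups as for Psmb8. Both dF1 values lay below both wt values, with a difference of -0.26 (SE 0.13, interval -0.58 to 0.07, limma adjusted p = 0.753). The dF4 interval of 193 to 281 RPKM held both wt values.

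Psmb10 replaces Psmb7 and ran the other way in dF1. It was at 94.1 and 105.9 RPKM in dF1, 91.8 in dF4 and 92.5 and 77.4 in wt. The lower dF1 value exceeded the higher wt value by little, and the difference of 0.24 did not pass (interval -0.13 to 0.61, limma adjusted p = 0.797). In dF4 it lay between the wt libraries.

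Psmb8 also has a promoter window in RefSeq, at chr17:34197945-34198244 of GRCm38.p6 on the plus strand. It is shown for its gamma-activated site, searched as TTCNNNGAA, which no other member window held and which 8.3% of all windows hold. Capitals mark that match, whose first letters are also an Ikaros core on the other strand.
Psmb8: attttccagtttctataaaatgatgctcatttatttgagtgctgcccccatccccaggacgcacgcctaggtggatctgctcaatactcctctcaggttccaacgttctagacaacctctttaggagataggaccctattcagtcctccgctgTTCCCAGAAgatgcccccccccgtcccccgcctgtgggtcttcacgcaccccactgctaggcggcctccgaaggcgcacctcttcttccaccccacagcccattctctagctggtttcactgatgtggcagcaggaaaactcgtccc

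In all libraries the inducible subunits exceeded the constitutive ones they replace. Psmb5 was at 6.5 and 6 RPKM in dF1, 1.9 in dF4 (about 1 read, interval 0.0482 to 10.6) and 6 and 2.1 in wt. This is low for a subunit that every cell can use. How reads of gene copies were counted is not given, so the first pair is uncertain. Psmb6 was at 34.7 and 37.8 RPKM in dF1, 25.8 in dF4 (about 16 reads) and 44.9 and 45.5 in wt. Its dF1 libraries were below both wt libraries (difference -0.31, SE 0.11, limma adjusted p = 0.672). Psmb7 was at 53.4 and 52.8 RPKM in dF1, 63.2 in dF4 and 54.3 and 63.7 in wt.

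The share of the inducible subunit in each pair shows the balance directly. Psmb9 made up 83.6% and 81.2% of Psmb9 plus Psmb6 in dF1, 90% in dF4 and 81.5% and 82.1% in wt. The dF1 and wt shares overlapped, and dF4 was the highest. Psmb10 made up 63.8% and 66.7% of its pair in dF1, 59.2% in dF4 and 63% and 54.9% in wt. For Psmb8 the share was 96.9% and 97.2% in dF1, 99.3% in dF4 (with about 1 Psmb5 read) and 97.4% and 99.1% in wt. Between dF1 and wt the mean shares differed by 0.615 points for Psmb9, 6.33 for Psmb10 and -1.21 for Psmb8. In the exact two-sided permutation test p was 1 for Psmb9 and 0.333 for Psmb10 and Psmb8 (0.5 for these 2 after adjustment over the 3 pairs), where 0.333 is the smallest p that 2 against 2 can give.

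**Figure D3:**
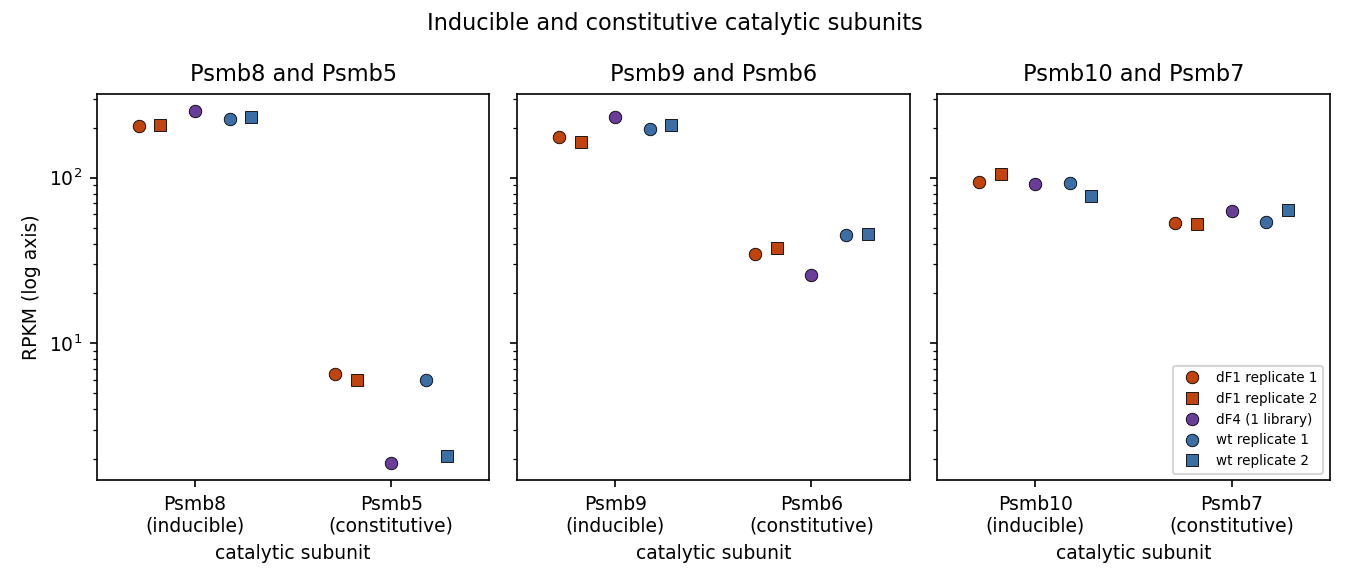
RPKM on a log axis of each inducible catalytic subunit (left in each panel) and the constitutive one it replaces (right), with 1 point per library (dF1, dF4, wt). In each panel every inducible point lies above every constitutive point, and Psmb6 is lowest in dF4, at 25.8 RPKM.

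Nlrc5 is a nuclear protein that activates class I genes, among them B2m and Tap1. It was at 38.3 and 32.7 RPKM in dF1, 44.2 in dF4 and 35.5 and 33.6 in wt. The dF1 values enclosed the wt values (difference 0.03, interval -0.3 to 0.36, limma adjusted p = 0.967). In dF4 it was the highest of the 5 libraries, 1.28 times the wt mean, with an interval of 38.1 to 51.1 RPKM (about 186 reads) above both wt values.

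For dF4 there was no replicate, and its values against wt were compared without a test. By the size rule (dF4 outside both wt libraries, at least 1 from the wt mean on the log2 scale, wt libraries within 0.5 of each other) 0 of 10 members counted, where 16.3% of the 8759 transcripts averaging 5 RPKM or more did (6.96% higher and 9.34% lower). The leading transcripts of the 8 genes differed by -0.37 (Tapbp) to 0.44 (Tap2), 5 higher and 3 lower, with a median of 0.13. All 8 lay within 0.5 of the wt mean, as did 58% of the 2366 transcripts that averaged 30 RPKM or more in wt, and 20.3% of the 8759 lay at least 1 away. The minor transcripts lay further off, at -0.9 for Tap1 and -0.8 for Tapbp. Of the 10 transcripts 8 were outside both wt libraries, against 87% of all tested. The Tap1 minor form counted under the size rule with a pseudocount of 0.1 or without wt replicate 1, and it and B2m counted after quantile normalization. Against the dF1 libraries, which give the other reference for a mutant, dF4 was above both for 5 of the 10 and below both for 5, where 89.7% of all tested transcripts lay outside both, and the differences ran from -1.33 for the Tapbp minor form to 0.62 for Tap2.

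**Figure D4:**
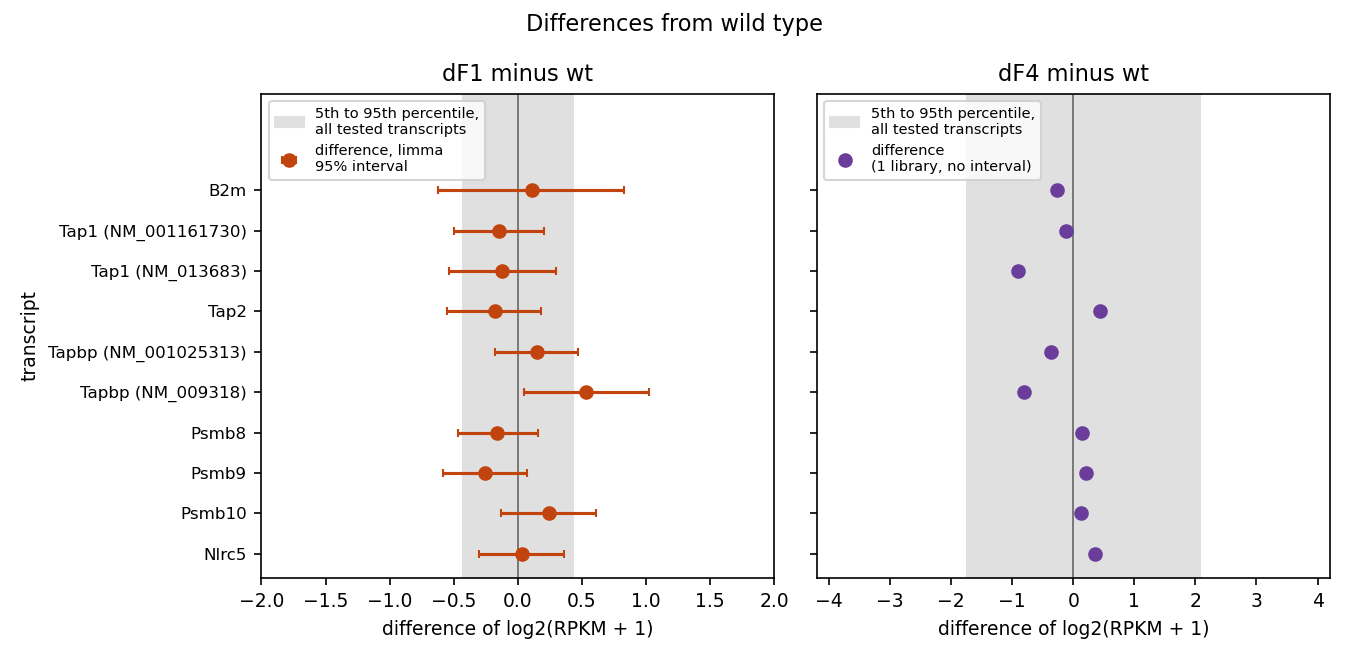
Difference of log2(RPKM + 1) from wt for the 10 transcripts, dF1 at left with limma 95% intervals and dF4 at right without an interval, on different axes. Grey bands span the 5th to the 95th percentile of all tested transcripts, -0.43 to 0.43 for dF1 and -1.74 to 2.08 for dF4. Every dF4 point lies inside its band, and in dF1 only the minor transcript of Tapbp (NM_009318), at 0.53, lies outside.

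The cell markers named above moved with the dF4 library, and their part in its values was not tested. Mature B markers (5) summed to 375.3 RPKM in dF4, against 20.8 and 27.6 in wt, and T cell markers (6) to 491.3, against 232.6 and 144.9. Monocyte markers (6) came to 1325 in dF4, against 400.3 and 334.7 in wt, with 3 higher and 3 lower. Most of that was Lyz2, which neutrophils also express, and the other 5 summed to 201 in dF4, against 366.6 and 294.5 in wt. Erythroid markers (6) came to 314.7 in dF4, against 116.3 and 169.9 in wt. Tfrc, which dividing cells of other types also express, was the 1 of them that was lower, at 36.9 in dF4 against 111.5 and 152.6 in wt, and the other 5 summed to 277.8, against 4.8 and 17.3. NK markers (8) summed to 354.4 against 1156 and 559.2. Conventional dendritic cell markers (6) came to 14.8 in dF4, against 272 and 301.1 in wt, with 3 of the 5 tested lower and 2 higher. Most of the wt sum was Flt3 (5.5 in dF4 against 135.1 and 144.1) and Itgax (0.4 against 98.5 and 118.5). Zbtb46 and Batf3, at 1.1 RPKM or below in wt, were higher in dF4, at 1.7 and 4.7. Xcr1, at 0.2 and 0.1 in wt, was listed at 0 in dF4.

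Genes that interferon induces were also measured as a list. Of 12, 12 were higher in dF1 on average, as were 6279 of all 12213 tested transcripts. At an unadjusted limma p under 0.05, 6 were higher, against 3.11% of all transcripts, and 0 passed limma's correction. The median difference of the 12 was 0.68. They summed to 681.6 and 437.3 RPKM in dF1, 182.1 in dF4 and 334.8 and 400.8 in wt. The lower dF4 sum was not shared by the whole list. In dF4, 6 of the 12 were above the wt mean and 6 below, with a median difference of -0.14. Of all tested transcripts, 48.7% were below. Irf7, a transcription factor of the interferon response, was at 340.4 and 205.6 RPKM in dF1, 36.1 in dF4 and 133.3 and 170.4 in wt (limma adjusted p = 0.662 for dF1). The list was chosen with its direction in dF1 already known, so its count is no independent evidence. Of the 10 member transcripts, 3 lay above both wt libraries in the same dF1 libraries (Psmb10 and both forms of Tapbp) and 3 below (Psmb8, Psmb9 and the leading form of Tap1). Of all tested transcripts, 16.9% lay above and 17.9% below. Whether the members differ from this list was not tested.

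Of 81 other genes of the pathway in the table, 76 were tested. In dF1 0 of these passed limma's correction, with an unadjusted p under 0.05 for 2 higher (Hfe and Tapbpl) and 2 lower (Psmb6 and Ifnar1), where all transcripts gave 3.11% higher and 4.05% lower, and their median difference was 0.04. In dF4, 4 counted as higher and 5 as lower by the size rule among 68 that averaged 5 RPKM or more, where all transcripts gave 6.96% higher and 9.34% lower.

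Among 11 other subunits of the 20S core, the median difference was 0.14 in dF1 and 0.09 in dF4, and 0 of 8 considered counted in dF4. Psma1 was at 77.5 and 108.5 RPKM in dF1, 100.6 in dF4 and 84 and 64.5 in wt. Psma6 was at 105.9 and 98.3 in dF1, 113.6 in dF4 and 107.2 and 79.1 in wt. For Psma2 and Psma4 the dF1 differences were 0.09 and 0.17, and those of dF4 were 0.33 and -0.04. Psma3, Psma5 and Psmb3 stood at 6.4 RPKM or below in every library, and Psma3 and Psma5 were listed at 0 in dF4. They are uncertain in the same way as Psmb5.

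Among the 9 assembly factors and activators, Psmg1, a chaperone of core assembly, was the 1 that counted in dF4. It was at 10.3 and 13.3 RPKM in dF1, 20.3 in dF4 (about 12 reads, interval 10.4 to 35.2) and 10.1 and 7.2 in wt. The dF1 libraries were also above both wt libraries, with a difference of 0.41 that did not pass (limma adjusted p = 0.755). Psmg2 and Psmg4 differed by 0.3 and 0.22 in dF1. Psme3, an activator cap of the proteasome in the nucleus, was at 49 and 50.7 RPKM in dF1, 78.8 in dF4 and 50.5 and 44.6 in wt. Psme2, a subunit of the interferon-inducible cap, stood at 6.5 and 9 RPKM in dF1, 4 in dF4 and 7.7 and 5.5 in wt.

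Of the 9 genes for trimming and loading of peptides, 0 counted in dF4. Tapbpl, a relative of tapasin that edits peptides, was at 56.7 and 56.3 RPKM in dF1, 33.8 in dF4 and 47.2 and 45.5 in wt. Like tapasin, it was above both wt libraries in dF1 and below them in dF4, and the dF1 difference of 0.28 did not pass (limma adjusted p = 0.686). Erap1, which trims peptides in the endoplasmic reticulum, was at 41.3 and 40.6 RPKM in dF1, 35.3 in dF4 and 40.5 and 28.6 in wt. The chaperones Calr and Canx differed by -0.21 and -0.12 in dF1 and by -0.29 and -0.5 in dF4. The aminopeptidases Lap3 and Npepps were at 17.6 and 23.6 RPKM in dF4, with differences of 0.65 and 0.52.

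Heavy chains, which pair with B2m, have close copies, so their values are uncertain. H2-K1 was at 928 and 780.4 RPKM in dF1, 904 in dF4 and 835.5 and 660.7 in wt. H2-D1 was at 613.4 and 607.9 in dF1, 688.8 in dF4 and 560.2 and 537.1 in wt, the lowest values being those of wt. Its dF1 difference of 0.15 did not pass (limma adjusted p = 0.87), nor did that of H2-K1 (0.2, adjusted p = 0.881). B2m was at 1.82 and 1.58 times the sum of H2-K1 and H2-D1 in dF1, 1.2 times in dF4 and 1.83 and 1.73 times in wt, with dF4 the lowest. H2-T23, the Qa-1 molecule that presents to NK receptors, counted as lower in dF4. It was at 80.7 and 78.5 RPKM in dF1, 35.6 in dF4 and 76.1 and 97.2 in wt. H2-T24 was at 48.3 and 43.4 in dF1, 20.7 in dF4 and 35.6 and 38.2 in wt (dF1 limma adjusted p = 0.693), and H2-Q6 had a dF4 difference of 0.98. Mr1, which presents vitamin metabolites, was at 5 and 6 RPKM in dF1, 4.3 in dF4 and 7.5 and 5.8 in wt. Fcgrt, the neonatal Fc receptor chain, was at 9.6 and 10 RPKM in dF1, 24.9 in dF4 and 12.1 and 10.5 in wt and counted as higher in dF4. Hfe, an iron regulator that also binds B2m, is given here because of its values. It was at 10.4 and 8.2 RPKM in dF1, 4.9 in dF4 and 0.6 and 0.5 in wt (dF1 difference 2.72, limma adjusted p = 0.126). The dF4 value of Hfe rested on about 5 reads, with an interval of 1.56 to 11.2 RPKM.

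**Figure D5:**
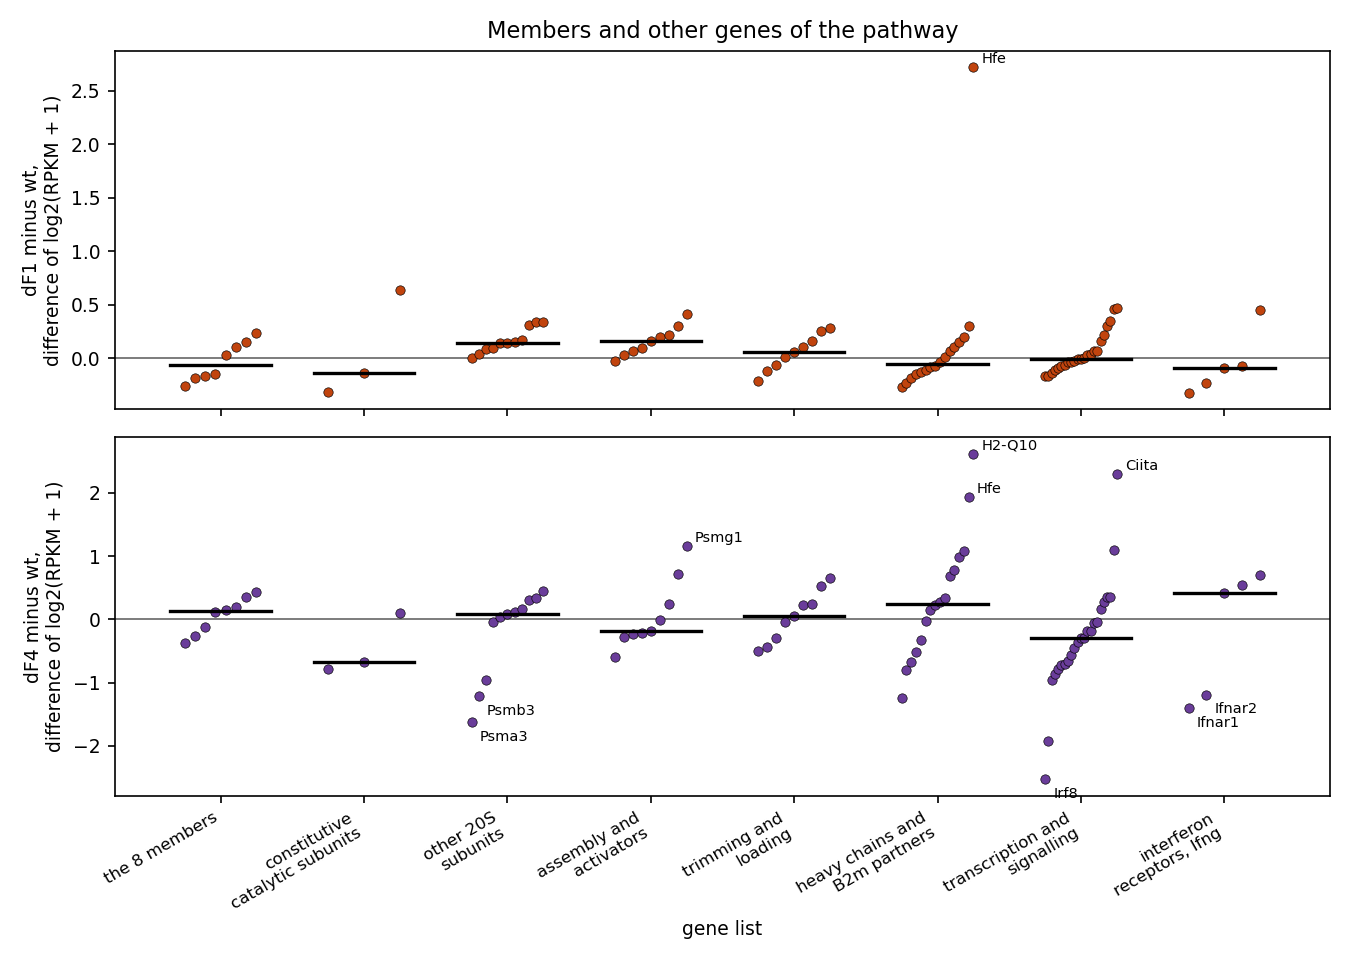
Difference of log2(RPKM + 1) from wt for the leading transcripts of the 8 members and for the tested genes of each pathway list, dF1 above and dF4 below, with 1 point per gene and black bars at the list medians. The members span -0.37 to 0.44 in dF4, whereas transcription and signalling genes reach from -2.53 (Irf8) to 2.3 (Ciita).

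Several regulators of class I promoters lay further from wt in dF4 than any member did. Irf8, which myeloid, pDC and B cells express, was at 1019.5 and 1359.5 RPKM in dF1, 215.8 in dF4 and 1190.3 and 1317.2 in wt. Stat2, part of the type I interferon signal, was at 94.4 and 83 RPKM in dF1, 23.5 in dF4 and 77.8 and 109.5 in wt. Both counted as lower in dF4. Irf1, an activator of Tap1 and Psmb9, was at 66.5 and 57.3 RPKM in dF1, 48.6 in dF4 and 66.3 and 59.4 in wt. Ciita, which activates MHC class II genes and is a relative of Nlrc5, was at 10.4 and 10 RPKM in dF1, 54.6 in dF4 and 8.6 and 12.3 in wt. Rfx5, a DNA-binding partner of both, was at 10.4 and 9.9 in dF1, 25.6 in dF4 and 11 and 11.9 in wt. In dF4 both counted as higher. That made 2 higher and 2 lower among 21 considered, where all transcripts gave 6.96% higher and 9.34% lower. Of the 23 genes in this list, 17 were below the wt mean in dF4, as were 48.7% of all tested transcripts. In dF1 0 of the 23 passed limma's correction, 0 had an unadjusted p under 0.05, and the differences of Socs1, Jak1 and Jak2 were 0.47, 0.46 and 0.35.

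The 2 receptor genes of type I interferon counted as lower in dF4, where 9.34% of all transcripts did. Ifnar1 was at 45.2 and 50.3 RPKM in dF1, 21.9 in dF4 and 59.7 and 60.2 in wt, and Ifnar2 at 122 and 103.4 in dF1, 57 in dF4 and 124.4 and 139.5 in wt. Both were also below both wt libraries in dF1, without passing (limma adjusted p = 0.668 and 0.805). Ifngr1, a chain of the interferon gamma receptor, was at 116.1 and 104.8 RPKM in dF1, 108.3 in dF4 and 110.4 and 58.7 in wt, and Ifng, the cytokine itself, had a dF4 difference of 0.7 with wt libraries that differed by 1.15.

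The mean profile of the 8 genes over the 5 libraries was nearly flat, at -0.02 and -0.04 on the centred log2 scale in dF1, 0.06 in dF4 and 0 in both wt libraries. This profile averages genes that went both ways in dF4, 5 higher and 3 lower than wt. Among 3697 genes that averaged 20 RPKM or more, those closest to the mean profile were Gabpb2, Ccz1, Naa40, Smarca2 and Atrx, at Euclidean distances of 0.033 to 0.0626. Gabpb2, for instance, was at 33.7 and 33.3 RPKM in dF1, 34.7 in dF4 and 33.6 and 33.7 in wt. The members themselves lay further from the mean profile, at 0.185 (Psmb8) to 0.513 (Tapbp), where 6.36% and 53.2% of genes were closer. With 5 libraries, likeness in profile is a description.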

How the data were processed

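RNA of sorted Hardy fraction A cells was sequenced after TruSeq preparation, per the labels' protocols. The authors deposited RPKM values per RefSeq transcript, written to 1 decimal, per the file headers. TopHat and bedtools, without versions, and the build mm9 appear in the submitters' processing notes. The counting rule, the strand setting and the treatment of reads that fit several transcripts or copies are not given. The file also lists transcript lengths, and 1 line that named no gene was left out.

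Differences were taken on log2(RPKM + 1), which understates changes of low transcripts. The 12213 transcripts that averaged 1 RPKM or more across the 5 libraries were compared between dF1 and wt by limma 3.58.1 (R 4.3.3), with a variance trend in eBayes, two-sided, with Benjamini-Hochberg adjustment over all of them and a threshold of 0.05. The script was tested on simulated data. The members, lists and tests were chosen with earlier results of these data known. All rows of the 8 genes are named. From each pathway list the text names the 3 largest dF1 and the 3 largest dF4 differences with a mean of at least 5 RPKM, the constitutive catalytic subunits, Irf1, H2-K1 and H2-D1; 1 further gene that the rule names outright is not reported here. Hfe, Rfx5, Psma3, Psma5, Psmb3, Irf7, Lyz2 and Tfrc were named for their values where the rule did not take them. So were the markers Siglech, Ly6d, Cd300c, Cox6a2, Cd79a, Dntt, Rag1, Flt3, Itgax, Zbtb46, Batf3 and Xcr1. A gene with several transcripts entered by that with the highest mean, and H2-Q4 was matched through its older name. Promoter windows came from RefSeq (GRCm38.p6) and transcripts from GENCODE (GRCm38), another build than that of the files. The alternatives, given below, changed the pseudocount (0.1 and 5), the filter, the scaling, the variances, the samples and the covariates.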

Additional observations from a re-analysis of the deposited data

How the results depend on the processing

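For dF1, 0 of the 10 member transcripts passed under all 14 alternatives, and their adjusted p lay between 0.428 and 1 over the main and alternative settings. Over all transcripts, 0 were called under 11 of them, and 245 with no filter, 25 with a mean of at least 5 RPKM and 33 with robust variances. The median of the members lay between -0.07 and -0.02 when 1 library was left out. The sign of an uncalled difference turned for B2m after quantile normalization (0) and when 1 library was left out (-0.07 to 0.28), for the Tap1 minor form when 1 library was left out (-0.27 to 0.04), and for Nlrc5 with the neutrophil covariate (-0.01) and when 1 library was left out (-0.08 to 0.15). Such fits leave 1 group with 1 library, which is assumed to vary like the other. The cause was not tested.

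The labels number the replicates but do not say that a number marks a pair. Deviations of same-numbered dF1 and wt libraries correlated at 0.3 over transcripts. With the replicate block, 0 transcripts and 0 members were called, 1071 had an unadjusted p under 0.05 against 875 without the block, and it changed no other call.

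For dF4, the number past the size rule was 1428, and 3298 with no filter or 2593 with a mean of at least 1 RPKM, the last chosen after the data were seen. Members past it numbered 0, and 1 with a pseudocount of 0.1, 2 after quantile normalization and 0 to 1 when a wt library was left out, where the rule on the wt gap could not apply. The members' median of 0 became -0.12 after quantile normalization and -0.08 after median centring. Their depth in dF4, 4 to 991 reads, limits what can be said of the minor forms.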
